A study of Mus musculus with 6 samples.

Results

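This report describes 10 genes that mark epithelial cells or served to sort them: Epcam, Cdh1, Cdh16, Grhl2, Elf3, Esrp1, Rab25, St14, Spint1 and Spint2. They were taken by name from the single-colour Agilent arrays, on which Epcam is listed as Tacstd1 and Esrp1 as Rbm35a, and are 10 of 21391 genes tested, read by 15 of the 41174 probes. RNA came from freshly sorted cells of C57BL/6 mice on 3 thymic and 3 thyroid arrays, which the submitters call independent replicates. The thymic cells came from the thymic medulla and were sorted as positive for Epcam protein and the lectin UEA1, lacking CD45, which blood cells carry, and unstained by the dead-cell dye Fluorogold. The thyroid cells were sorted in the same way but without the lectin. Thymi were digested with dispase besides the collagenase and DNAse used for both organs. Each sample is a pool of organs: 6 thymi for thymic replicates 1 and 2, 2 thymi for thymic replicate 3, and 20 thyroids for every thyroid replicate. The labels give neither age nor treatment, and name no transgene.

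Epcam is a surface adhesion protein of most epithelia. Cdh1 encodes E-cadherin, which holds epithelial cells together at adherens junctions, and Cdh16 encodes a kidney and thyroid cadherin. Grhl2 and Elf3 are transcription factors of epithelia, and Grhl2 is known to act on Cdh1 and Rab25. Esrp1 is an RNA-binding protein that sets epithelial splicing, and Rab25 is a small GTPase of recycling vesicles. St14 encodes matriptase, a membrane serine protease, and Spint1 and Spint2 encode its inhibitors HAI-1 and HAI-2. Matriptase can also cleave Epcam protein.

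What each of the probes reads bears on every value here, so the probes of Epcam, Rab25 and 1 of the 2 of St14 are shown. Each was placed by the array files over more genome than its 60 bases, so that it crosses an intron and reads spliced RNA. Their places in mm8, the build of the array files, are chr17:87557958-87558786 on the plus strand for Epcam, chr3:88628279-88628668 on the minus strand for Rab25 and chr9:30850003-30852442 on the minus strand for St14.
Epcam: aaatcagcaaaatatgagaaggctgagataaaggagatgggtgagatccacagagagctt
Rab25: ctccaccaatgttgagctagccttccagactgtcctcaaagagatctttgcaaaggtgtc
St14: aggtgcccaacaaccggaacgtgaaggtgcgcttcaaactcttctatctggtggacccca

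The promoters are shown because the factors that read them were measured too: CAGGTG is the E-box at which Zeb1, Zeb2, Snai1 and Snai2 can repress epithelial genes, and AACCNGTT is a core of the motif of the Grhl family. The RefSeq promoter table (GRCm38.p6) held 5 of the 10 genes, and the 250 bases before the start were searched on both strands, so that CAGGTG also counts as CACCTG. At least 1 CAGGTG was found in 4 of these 5 windows, those of Epcam, Elf3, Rab25 and Spint2, against 17.2% of all 32851 windows of that length. AACCNGTT was found in 1, that of Rab25, against 1.79% of all windows. The window of Spint1 held neither. The windows of Epcam (chr17:87635729-87635978, plus strand), Rab25 (chr3:88548280-88548529, minus strand) and Spint2 (chr7:29281978-29282227, minus strand) follow, 5′ to 3′, with both motifs in capitals.
Epcam: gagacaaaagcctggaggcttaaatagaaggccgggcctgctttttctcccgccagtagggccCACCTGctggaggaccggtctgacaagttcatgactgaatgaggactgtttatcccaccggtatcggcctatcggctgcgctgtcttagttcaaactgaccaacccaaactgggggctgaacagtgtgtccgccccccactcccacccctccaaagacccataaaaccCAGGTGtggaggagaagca
Rab25: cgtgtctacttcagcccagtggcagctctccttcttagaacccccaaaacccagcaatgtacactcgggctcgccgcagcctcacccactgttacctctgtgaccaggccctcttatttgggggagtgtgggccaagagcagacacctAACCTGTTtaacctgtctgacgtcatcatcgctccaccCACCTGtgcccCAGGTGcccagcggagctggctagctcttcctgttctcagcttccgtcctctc
Spint2: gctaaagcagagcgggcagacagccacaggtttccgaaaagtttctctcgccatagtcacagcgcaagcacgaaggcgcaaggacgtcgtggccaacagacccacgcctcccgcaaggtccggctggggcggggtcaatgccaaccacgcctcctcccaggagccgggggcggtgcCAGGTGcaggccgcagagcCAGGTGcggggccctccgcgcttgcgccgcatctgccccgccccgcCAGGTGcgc

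All 10 genes were measured in both kinds of cell. Each had a probe well above background on all 6 arrays, a flag the scanner software sets for signals over 13 background SDs. Compared with limma (two-sided, p-values adjusted by the Benjamini-Hochberg method over all 21391 genes, threshold 0.05), 8 were higher in thymic cells and 2, Cdh16 and Rab25, were higher in thyroid cells. The background was high: 39.2% of all genes passed towards the thymus, 30.6% towards the thyroid and 69.8% in either direction. The groups did not overlap in any of the 10 genes, as was the case for 76.5% of all genes. The median difference of the 10 was 0.94 on the log2 scale (thymic minus thyroid), against 0.10 over all genes. Apart from Cdh16, the differences lay between -0.47 for Rab25 and 1.61 for Elf3. In these pooled samples, fewer epithelial cells and less RNA per cell cannot be told apart.

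These counts depend on how the arrays are brought to a common scale, which was the 75th percentile of each array's signal. When each array was centred on its median instead, the median of all genes moved from 0.10 to -0.42, and 28.6% of genes passed towards the thymus and 51.3% towards the thyroid. Then 5 of the 10 genes were higher in thymic cells (Epcam, Cdh1, Elf3, Esrp1 and Spint1) and 2 in thyroid cells. Cdh16 and Rab25 were below 0 under every scaling tried. Thymic replicates 1 to 3 and thyroid replicate 1 shared a slide, and thyroid replicates 2 and 3 another. Between the arrays of the first slide, the 8 genes higher in thymic cells differed by 0.65 (Spint2) to 1.76 (Elf3) and Cdh16 by -7.56. That slide holds a single thyroid array, whose spread is taken from the thymic arrays, and since thyroid arrays spread more for all 10 genes, its p-values are too small and calls on it are not counted as support.

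**Figure D1:**
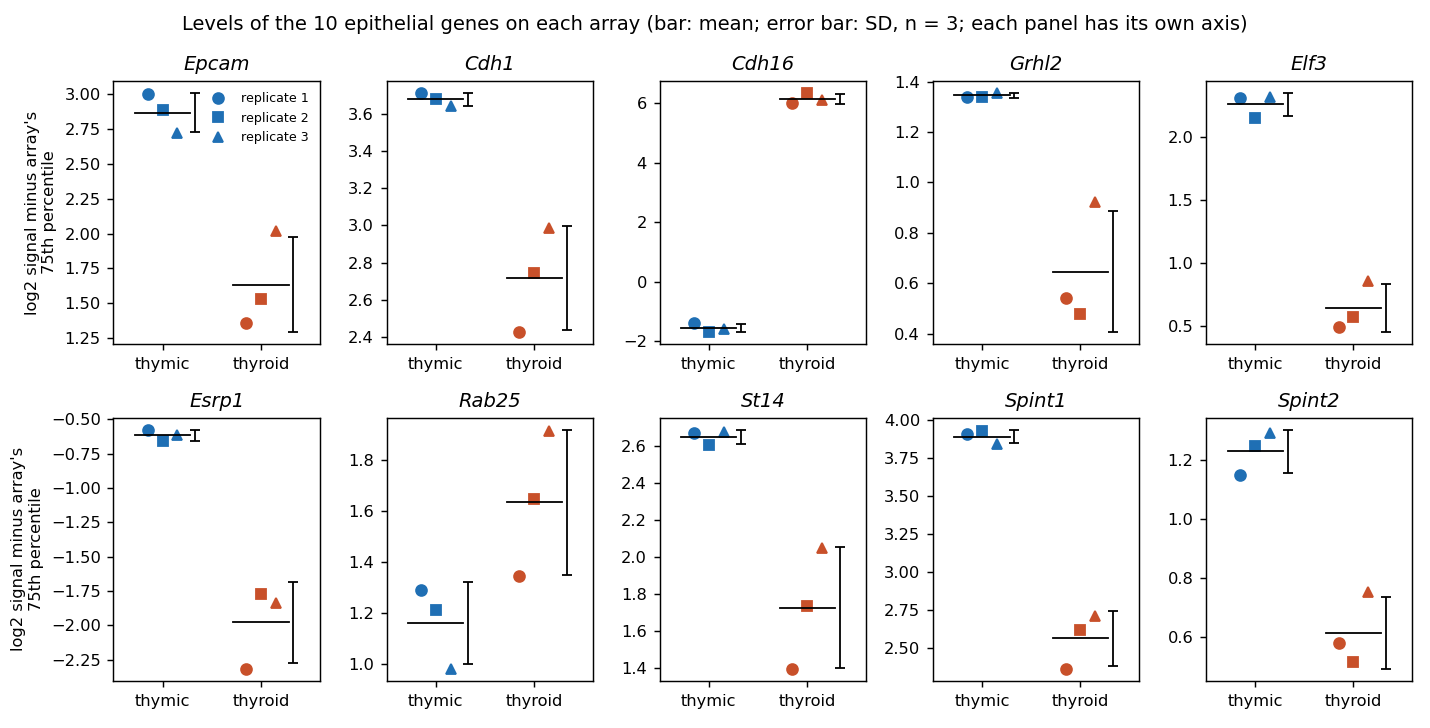
Level of each of the 10 genes on the 6 arrays, as log2 signal minus the array's 75th percentile, with the mean as a bar and the SD (n = 3) as an error bar. The values of the 2 groups lie apart in every panel, the thyroid values spread wider, and Cdh16 and Rab25 are the genes with the higher thyroid mean.

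Epcam, by whose protein both groups were sorted, was 2.36-fold higher in thymic cells. Its log2 levels were 3.00, 2.88 and 2.72 on thymic arrays 1 to 3 and 1.35, 1.53 and 2.02 on thyroid arrays 1 to 3. All thymic values lay above all thyroid values, with means of 2.87 ± 0.14 and 1.63 ± 0.34 (SD, n = 3 each; limma adjusted p = 0.00108). The difference was 1.24 ± 0.19 (SE), with a range of 0.71 with median centring to 1.52 on the first slide. CD45 served to exclude cells in both sorts, and its gene Ptprc was 16.5-fold higher on the thymic arrays, with means of -0.95 and -5.00 (limma adjusted p = 1.05e-05). With normexp background correction the difference of Ptprc was 2.27 in place of 4.05.

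The cadherins went in opposite directions, except when each array was centred on Epcam, where both were below 0. Cdh1 was read by a probe with 10 spots on each array, whose signals ranged from 9662 to 10816 on thymic array 1 and from 2993 to 3512 on thyroid array 2. The coefficient of variation among these spots was 2.74% to 5.77%, or at most 0.082 as an SD on the log2 scale, below the SD of 0.28 between the thyroid arrays. The log2 levels of Cdh1 were 3.71, 3.68 and 3.64 on the thymic arrays, and the thyroid arrays stood at 2.43, 2.74 and 2.98. Thymic cells were higher by 1.95-fold (difference 0.96 ± 0.16 SE, limma adjusted p = 0.00146).

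Cdh16 was 208-fold higher in thyroid cells, the 33rd largest difference in that direction. Its signals were 52070, 38750 and 48760 on thyroid arrays 1 to 3 and 293.9, 219.6 and 226.3 on thymic arrays 1 to 3. The low thymic signals were still well above background on all 3 arrays. On the log2 scale the difference was -7.70 ± 0.14 (SE; limma adjusted p = 2.43e-07), and -7.56 on the first slide. The next largest of the 10 differences was the 3.06-fold of Elf3. Among thyroid follicular genes, Tg, which encodes thyroglobulin, differed by -10.78, and Pax8, a thyroid transcription factor, was well above background on no thymic array. The probe lies at chr8:107503330-107503389 in mm8, on the minus strand.

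The 3 regulators were higher in thymic cells, although Grhl2 was below 0 when arrays were centred on Epcam. Elf3 differed most, with log2 levels of 2.30, 2.15 and 2.31 in thymic cells against 0.50, 0.57 and 0.86 in thyroid cells (difference 1.61 ± 0.13 SE, limma adjusted p = 5.00e-05). No thymic value of Elf3 came within 1 log2 unit of a thyroid value. Esrp1 stood at -0.58, -0.66 and -0.61 on the thymic and -2.32, -1.78 and -1.84 on the thyroid arrays, a 2.57-fold difference (1.36 ± 0.16 SE, limma adjusted p = 3.10e-04). A second, dim probe of Esrp1 was well above background on all 3 thymic arrays and on no thyroid array, which makes it at least 1.85-fold brighter there (means -5.18 and -7.17, or -6.07 with the thyroid arrays set to the lowest signal above background).

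Grhl2 was 1.62-fold higher in thymic cells by its brightest probe, at 1.34, 1.34 and 1.35 on the thymic and 0.54, 0.48 and 0.92 on the thyroid arrays (difference 0.70 ± 0.14 SE, limma adjusted p = 0.00418). The 3 thymic values differed by an SD of 0.0084, the smallest of any of the 10 genes. A second probe of Grhl2 gave a difference of 1.504 (limma adjusted p = 6.34e-04 over probes), and the third, well above background on 2 thymic arrays and 1 thyroid array, was not tested. The 2 tested probes agree in direction but differ in size. With median centring the brightest probe differed by 0.18 and did not pass (adjusted p = 0.286; the alternatives gave 7.45e-04 to 0.286).

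Rab25, the vesicle GTPase, was the gene whose group difference was least certain. Its log2 levels were 1.29, 1.21 and 0.98 in thymic cells, against 1.34, 1.65 and 1.91 in thyroid cells. Thyroid replicate 1 lay only just above thymic replicate 1. The difference of -0.47 ± 0.17 (SE), or 1.39-fold towards the thyroid, passed at a limma adjusted p of 0.0460. It was -0.18 on the first slide (adjusted p = 0.366), -0.18 with the slide as a block (adjusted p = 0.439) and -0.995 with median centring (adjusted p = 0.00130); the alternatives gave 2.09e-05 to 0.439. The call ended when any 1 array other than thyroid replicate 1 was left out.

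The protease and its inhibitors were all higher in thymic cells, although centring on Epcam put St14 and Spint2 below 0. St14 was at 2.67, 2.61 and 2.68 on the thymic and 1.39, 1.74 and 2.05 on the thyroid arrays, a 1.90-fold difference (0.93 ± 0.18 SE, limma adjusted p = 0.00290). Its second probe, shown above, gave a difference of 1.30 (limma adjusted p = 0.00482 over probes). With median centring St14 did not pass (difference 0.40, adjusted p = 0.0565; the alternatives gave 5.12e-04 to 0.272).

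Spint1, the inhibitor HAI-1, was 2.51-fold higher in thymic cells, with levels of 3.91, 3.92 and 3.84 against 2.36, 2.62 and 2.71 (limma adjusted p = 9.40e-05). Both of its probes gave like differences, of 1.33 and 1.26. Spint2, the inhibitor HAI-2, differed less: its levels were 1.15, 1.25 and 1.29 against 0.58, 0.51 and 0.75, a 1.53-fold difference (limma adjusted p = 0.00254). With median centring that difference was 0.09 (adjusted p = 0.478; the alternatives gave 0.00120 to 0.478). Of the 14 tested probes of the 10 genes, 12 passed towards the thymus and 2 towards the thyroid, and 68.7% of all tested probes passed in either direction.

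**Figure D2:**
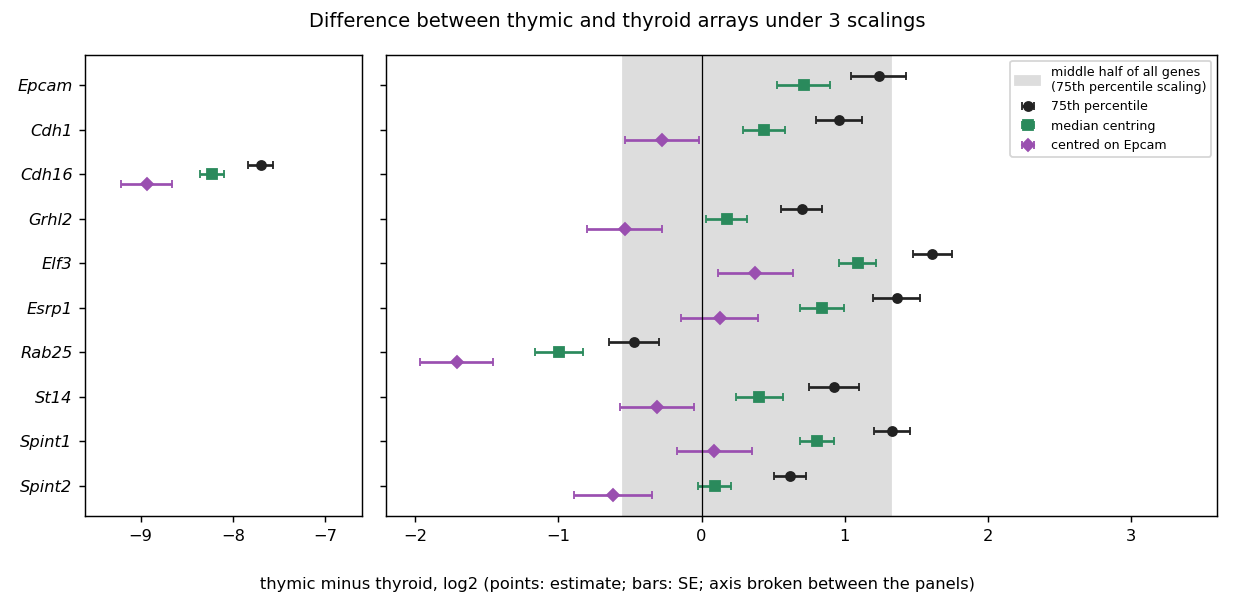
Difference of each gene between thymic and thyroid arrays (log2, with its SE) with arrays scaled to their 75th percentile, to their median or to Epcam, on an axis broken between the 2 panels; the grey band spans the quartiles of all genes, -0.55 to 1.32. Cdh16 lies far to the left under all 3 scalings, and the differences of the other genes shift together with the scaling. Centring on Epcam takes Cdh1, Grhl2, St14 and Spint2 to below 0, where Rab25 lies under all 3 scalings.

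A difference within an array does not depend on the scaling, so each gene was also set against Epcam on the same array. Against this reference most genes were lower in thymic cells: the median of all genes was -1.13, the groups did not overlap for 85.6% of genes, and 65.3% were apart with the lower values in thymic cells. The groups were apart for 7 of the 9 other epithelial genes, which is near that background. Over these 9 comparisons the exact permutation test over samples (two-sided) can give no p below 0.1. Apart from Cdh16, only Rab25 shifted by more than the median gene. Relative to Epcam, Rab25 stood at -1.71, -1.67 and -1.74 on the thymic arrays and at -0.01, 0.11 and -0.10 on the thyroid arrays, a shift of -1.71 (exact permutation p = 0.1). Rab25 relative to Epcam was thus lower on each thymic array than on any thyroid array by over 1.5 log2 units, and its thymic SD was 0.034. The spread of Rab25 between thyroid arrays, 0.28 by itself, was 0.11 relative to Epcam.

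Of the other genes, Spint2 (-0.62), Grhl2 (-0.54), St14 (-0.31) and Cdh1 (-0.28) were lower relative to Epcam on all thymic than on all thyroid arrays, by less than the median gene, and Elf3 (0.38) was higher (exact permutation p = 0.1 each). Cdh16 differed by -8.94. For Esrp1 (0.13, exact permutation p = 0.5) and Spint1 (0.09, exact permutation p = 0.6) the groups overlapped. The shift of Grhl2 was -0.13 with the median over its probes, and that of St14 was -0.12. When the whole table was centred on Epcam and refitted, 3 of the 9 genes were called, all towards the thyroid: Cdh16, Rab25 (limma adjusted p = 2.09e-05) and Spint2 (limma adjusted p = 0.0439). In that fit 64.5% of all genes were higher in thyroid and 20.1% in thymic cells.

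**Figure D3:**
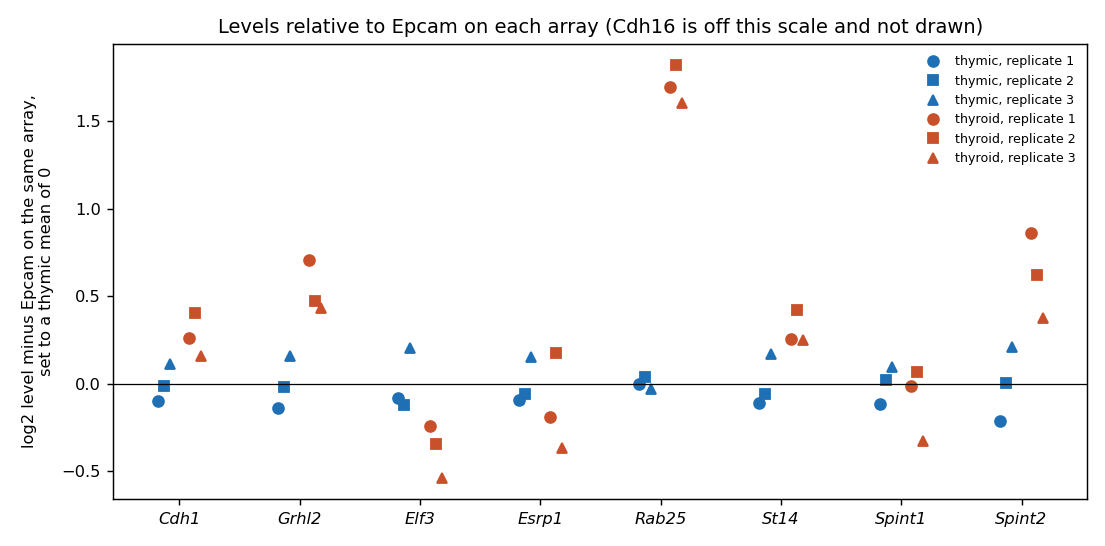
Level of 8 genes minus that of Epcam on the same array (log2), set to a thymic mean of 0, with 1 symbol per replicate. The thyroid points of Rab25 stand over 1.5 above its thymic points, those of Elf3 lie below, and those of Esrp1 and Spint1 overlap.

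The thyroid arrays spread more than the thymic arrays. The SD was larger in thyroid cells for 10 of the 10 genes, at 0.12 to 0.34 against 0.0084 to 0.16, where 74.2% of all genes tested had the larger SD there. Thyroid replicate 3 was the highest thyroid array for 8 of the 10 genes and replicate 1 the lowest for 8. The share of all genes with such an order was not counted. Over the thyroid arrays the mean log2 level of the 10 genes was 1.42, 1.64 and 1.85 in replicates 1 to 3, and that of 12 endothelial markers was 5.11, 4.95 and 4.41. The array with the highest epithelial mean, replicate 3, was also the lowest for the endothelial list, for the list of repressors and mesenchymal genes (0.26, 0.22 and -0.65) and for C cell and parathyroid genes (1.25, 2.12 and 0.94). It was the highest for 9 thyroid follicular genes (1.89, 1.94 and 2.43). For the 17 blood-cell genes replicate 3 was not the lowest (-4.73, -4.43 and -4.68). On the thymic arrays the 10 genes averaged 1.74, 1.67 and 1.66.

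Markers of other cells moved with the comparison. All 12 endothelial genes were higher in thyroid cells, with a median difference of -7.68, the largest for Emcn (-11.53) and the vascular growth factor receptor gene Kdr (-10.80), and were well above background on all 6 arrays. Their mean level ranged from -2.74 to -2.59 over the thymic arrays and from 4.41 to 5.11 over the thyroid arrays. Of 17 blood-cell genes, 16 were higher in thymic cells, among them Lyz2, a myeloid lysozyme (difference 6.74). The other, Cd8b1, was higher in thyroid cells (-1.99) by its brightest probe. Median centring left 12 towards the thymus and 1 towards the thyroid (28.6% and 51.3% of all genes), and quantile normalization 11 and 3. With normexp the counts were 12 and 1, and the median difference of the list fell from 2.01 to 0.95. With the median over a gene's probes, all 17 were higher in thymic cells. The mean level of the 17 genes ranged from -1.87 to -1.42 on the thymic and from -4.73 to -4.43 on the thyroid arrays, and 4 of them were well above background on no thyroid array. The sorted tissues matched their labels: 9 of 9 thymic epithelial genes, such as Ccl25 (7.30) and Krt14 (6.96), were higher in thymic cells, and 8 of 9 thyroid follicular genes, led by Tg, in thyroid cells. The part of these other cells in the differences of the 10 genes was not tested.

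Most other regulators of epithelia were also higher in thymic cells. Of 12 tested genes, 10 passed towards the thymus and 1 towards the thyroid, where 39.2% and 30.6% of all genes did, with a median difference of 1.32; median centring left 6 and 1 (28.6% and 51.3% of all genes), and centring on Epcam 5 and 4. Trp63, the p63 factor of stratified epithelia, differed by 3.71 and Ehf, an ETS factor like Elf3, by 3.47. Klf4 was the gene higher in thyroid cells (-1.61). Grhl1, a relative of Grhl2, was 2.96-fold higher in thymic cells (limma adjusted p = 7.07e-04). That is a larger fold than the 1.62 of the brightest Grhl2 probe, but close to the 2.84 of the second Grhl2 probe. Esrp2, a relative of Esrp1, was only 1.30-fold higher (limma adjusted p = 0.0253), and its difference turned to -0.14 with median centring and to -0.85 with Epcam centring. Grhl3 was not measured under its own name.

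Genes of epithelial adhesion and polarity went in both directions, as all genes did. Of 28 tested genes, 15 passed towards the thymus and 7 towards the thyroid, against the same 39.2% and 30.6% of all genes, with a median of 0.50, whereas median centring gave 9 and 11 with a median of -0.02, and centring on Epcam 4 and 15. Lad1, a basement membrane anchor gene, was higher in thymic cells (4.76). Higher in thyroid cells were Mal2, a gene of apical transport (-1.09), and Jup, which encodes plakoglobin (-1.01). Catenins of the E-cadherin complex were also higher in thyroid cells, opposite to Cdh1: Ctnna1 by 1.82-fold, Ctnnb1 by 1.76-fold and Ctnnd1 by 1.32-fold. The difference of Ctnnd1 was -0.40, or only -0.25 on the first slide. These catenins are not restricted to epithelia, they were picked out after their values were seen, and only the brightest probe of each was compared. Cldn7, a claudin that binds Epcam protein, was at 4.65 in thymic and 4.35 in thyroid cells and did not pass (limma adjusted p = 0.114). It passed with normexp (0.38) and with quantile normalization (0.54), and turned to -0.22 with median centring. Its difference on the first slide was 0.59.

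Around matriptase, 6 of 10 tested genes passed towards the thymus and 4 towards the thyroid, with a median of 0.48, where 69.8% of all genes passed in either direction. Median centring gave 4 and 4 with a median of -0.04, and centring on Epcam 4 and 6. Prss8, which encodes prostasin, a protease that acts with matriptase, was 4.15-fold higher in thyroid cells (-2.05 ± 0.19 SE, limma adjusted p = 8.57e-05), opposite to St14, Spint1 and Spint2. Under each scaling tried the difference of Prss8 was below 0. Tmprss13, another membrane serine protease, was also higher in thyroid cells (-1.77). Towards the thymic cells stood Mst1r, the receptor gene of macrophage-stimulating protein (4.72), and Hgfac, a protease that activates hepatocyte growth factor (3.27). With normexp these were 3.36 and 2.23.

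Of the E-box repressors named with the promoters, Snai1, Zeb1 and Zeb2 were higher in thyroid cells and Snai2 did not pass. Snai1 differed by 36.9-fold, with means of 2.25 on the thyroid and -2.96 on the thymic arrays (limma adjusted p = 6.13e-06). Zeb1 was 12.4-fold higher in thyroid cells (limma adjusted p = 1.40e-06) and Zeb2 4.10-fold (limma adjusted p = 6.51e-04). Snai2 was at 1.35 in thymic and 1.19 in thyroid cells and did not pass (limma adjusted p = 0.383). Over the whole list of 15 tested repressors and mesenchymal genes, 4 passed in each direction, shares below the 39.2% and 30.6% of all genes, and the median was 0.16; median centring gave 2 towards the thymus and 5 towards the thyroid. Vim, the vimentin gene, was the other gene higher in thyroid cells (-0.95). The fibroblast genes Col1a1, Col1a2, Col3a1, Pdgfra and Pdgfrb did not pass, and S100a4 (1.97) and the surface protein gene Thy1 (1.25, which did not pass with median centring or on the first slide) were higher in thymic cells. So were Fn1, which encodes fibronectin (0.67, which did not pass with median centring), and Cdh2, the N-cadherin gene (3.74, or 1.68 with normexp), which was well above background on 2 of 3 thyroid arrays. Endothelial genes moved with Snai1, Zeb1 and Zeb2, as given above, and their part in these differences was not tested.

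**Figure D4:**
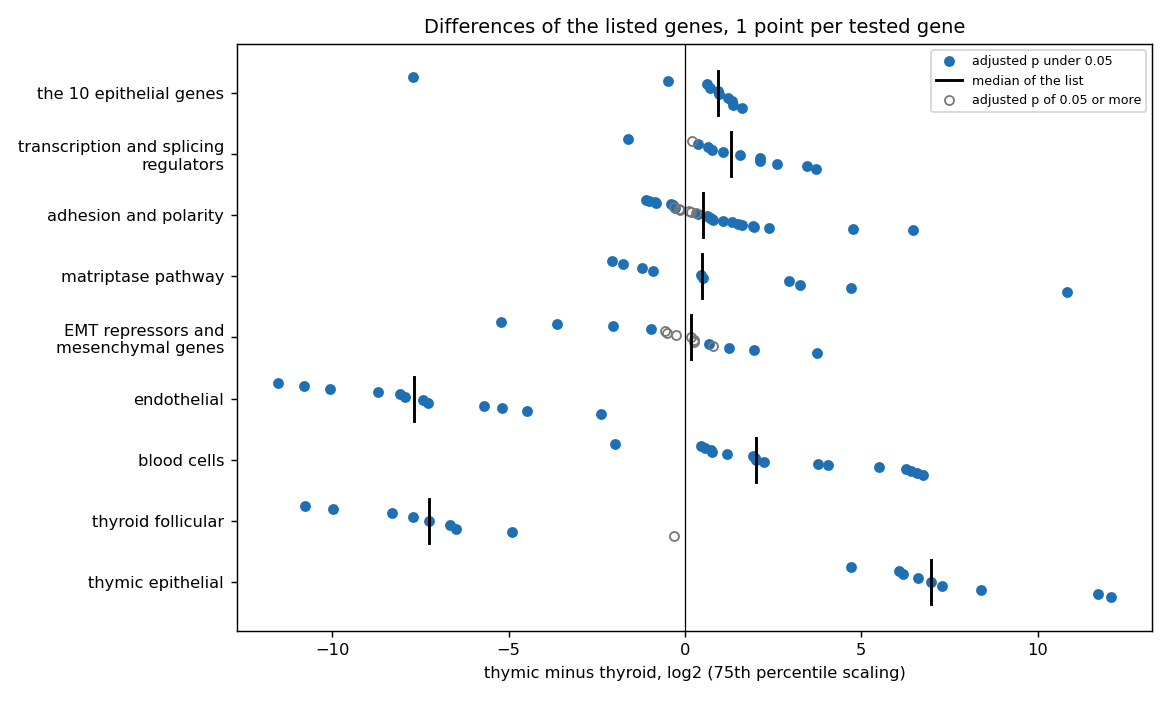
Difference between thymic and thyroid arrays (log2, 75th percentile scaling) for each tested gene of 9 lists, filled where the limma adjusted p is under 0.05, with the list's median as a vertical bar. The 10 epithelial genes lie close to 0 next to the endothelial, thyroid follicular and thymic epithelial genes, except Cdh16 at -7.70.

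Among 21372 genes, Sema6c, a semaphorin gene, was one of those whose levels ran most like those of Epcam over the 6 arrays (Pearson r = 0.9977, rank 5). Among the 10, Cdh1 came closest (r = 0.991, rank 87), then St14 (r = 0.983, rank 318). These correlations are mostly the difference between the groups and rest on 6 arrays.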

How the data were processed

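RNA extracted with Trizol, per the labels' protocols, was labelled with Cy3. Per the file headers, the deposited intensities were extracted by Agilent's Feature Extraction software (10.5.1.1): a processed signal, background-subtracted and detrended, and raw mean and background signals. The deposited value table is a linear ratio equal to that signal over each array's median. Control and outlier spots (67 to 151 per array) were left out and spots averaged. The log2 processed signal was set relative to the 75th percentile of its array (476 to 805). Testing needed a signal well above background on all 3 arrays of either group. A gene was represented by its brightest tested probe, named by accession or symbol (GRCm38.p6 table). The comparison used limma 3.58.1 (R 4.3.3), tested on simulated data. Those data had equal spread in both groups and far fewer changed genes, so they do not cover the wider thyroid spread seen here. No spot was saturated, and 3 arrays per group limit the precision. Lower bounds ("at least") set arrays below background to the array's lowest signal above it, and do not extend to normexp correction.

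The genes described, the lists (from textbook knowledge) and the tests were chosen with earlier results of these data known. Named from each list were the 2 largest calls in either direction, if above background on every array, and fixed relatives of the 10 genes. Some genes that this rule names are not reported here. Alternatives were normexp (offset 50), quantile, median and Epcam scaling, the deposited table, filters, the median over probes, slide, replicate block and leaving out arrays.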

Additional observations from a re-analysis of the deposited data

How the results depend on the processing

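The 8 genes higher in thymic cells became 5 with median centring and with the deposited value table, and 0 of 9 with each array centred on Epcam. The 2 higher in thyroid cells became 1, with Rab25 lost, under quantile normalization, without the filter on dim probes, on slide 1 alone, and with the slide or the replicate block in the fit; with an array left out they numbered 1 to 2. Centred on Epcam they were Cdh16, Rab25 and Spint2, or 3. Over all genes, 8389 were higher in thymic cells, against 5013 when probes had to exceed background on all 6 arrays and 4302 centred on Epcam, and 6547 in thyroid cells, against 10965 with median centring or the deposited table and 13788 centred on Epcam. Centring on Epcam, which adds that probe's own error, turned Cdh1 to -0.28, Grhl2 to -0.54, St14 to -0.31 and Spint2 to -0.62. Each of these 4 shifts follows from subtracting the larger difference of Epcam. Leaving aside slide 1 alone, whose calls are not counted, Cdh16 passed under every alternative. Epcam did so under every alternative that tests it, which centring on Epcam does not. The deposited table gave the same differences as median centring and adds no separate support. Same-numbered replicates did not deviate together (correlations 0.0067, -0.067 and -0.054), and the samples were not treated as pairs. These values do not tell whether same-numbered samples were processed together. With the replicate block 1 gene was higher in thyroid and 8 in thymic cells. The faint probes of Grhl2 and Esrp1 are limited by background.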

Other observations

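Genes of other endocrine epithelia of the neck were also measured. Calca, which encodes the calcitonin of thyroid C cells, was 16.5-fold higher on the thyroid arrays (difference -4.05 ± 0.14 SE, limma adjusted p = 1.22e-06), at a mean log2 level of 8.78 against 4.74. Calcb, a related peptide gene, went the opposite way, at 3.66 in thymic and -6.20 in thyroid cells (limma adjusted p = 1.73e-06; a difference of 9.86, or 6.90 with normexp), where 2 of 3 arrays were well above background. Pth, the parathyroid hormone gene, was 5.99-fold higher on the thyroid arrays (limma adjusted p = 0.0156), a difference of -2.58, or -1.83 on the first slide alone. In the same list, Gcm2 just passed towards the thyroid (-1.43, limma adjusted p = 0.0464). Casr went the other way but did not pass (0.94, limma adjusted p = 0.118). Of the 7 C cell and parathyroid genes, 2 passed towards the thymus and 4 towards the thyroid, against 39.2% and 30.6% of all genes. With the slide as a block this was 1 and 1. Both genes of enzymes that add the fucose read by UEA1 were higher in the thymic cells, the group sorted with that lectin. Fut2, well above background on 2 of 3 thyroid arrays, was higher by 2.96 on the log2 scale (limma adjusted p = 8.93e-06), or 1.22 with normexp. Fut1, well above background on no thyroid array, was higher by at least 4.45-fold (limma adjusted p = 1.83e-05). That bound did not hold with normexp, where the difference of Fut1 was 0.75 on the log2 scale.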
